A study of Mus musculus with 12 samples.

Results

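The insulin and IGF receptor signalling genes described here are 10 genes chosen by name: the ligands Igf1 and Igf2, the receptors Insr, Igf1r, Insrr and Igf2r, the docking proteins Irs1 and Irs2, the PI3-kinase regulatory subunit Pik3r1 and the transcription factor Foxo1. All 10 were found among the 24421 gene symbols of the deposited counts. They were measured by bulk RNA sequencing of whole pancreatic islets, the endocrine tissue that makes insulin and glucagon, from mice fed a high-fat diet for 6 weeks, to compare transcription with and without the interleukin-22 receptor in β cells. The 6 BKO libraries came from Il22ra1βKO mice, which lack the interleukin-22 receptor subunit alpha 1 in β cells. The 6 Cre libraries came from Ins2Cre control mice, in which the Ins2 promoter drives Cre in insulin-producing cells. The diet is common to both groups. The labels used here state neither strain, sex and age nor whether the controls carry a floxed allele. They also do not tie a library to 1 animal, and the p-values therefore cover only the spread among the 12 libraries, which may be technical.

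Insulin and the IGFs bind receptor tyrosine kinases of 1 family, which phosphorylate IRS docking proteins. These recruit PI3-kinase through its regulatory subunit, AKT is activated, and AKT keeps FOXO transcription factors out of the nucleus. In β cells this pathway is known for its part in cell mass, survival and secretory function, and Irs2 and Foxo1 in particular have been studied there in mice.

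BKO libraries held 10356093 to 11902217 reads in genes and Cre libraries 11444273 to 12397139. Il22ra1, the targeted gene, had 13 reads in all BKO and 16 in all Cre libraries, with 3 reads or fewer in 10 of the 12, so its loss could not be checked at this depth. Of the cell type markers, 11 of 12 β-cell genes had a lower mean level in BKO and all 14 endothelial, 8 α-cell and 6 δ-cell genes a higher one. Of 11 macrophage genes only 1 had a higher mean in BKO. Summed, β-cell markers ranged from 98837 to 157413 CPM (reads of a gene scaled to library size) in BKO and from 122379 to 153760 CPM in Cre, and endothelial markers from 656 to 949 CPM in BKO and from 527 to 746 CPM in Cre, so the groups overlapped. Acinar markers, from the surrounding exocrine tissue, were detected at 1523 to 5370 CPM in BKO and 308 to 6824 CPM in Cre, and 12 of 14 had a higher mean in BKO. In whole islets, fewer cells of a type and less RNA per cell cannot be told apart.

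The promoters of both IRS genes hold the same pair of motifs, and that of Igf2r holds 1 of the pair in 2 places, so these 3 are shown. RefSeq promoters (GRCm38.p6, the same primary assembly as mm10) were found for 8 of the 10 genes, with 12 start sites among them, 4 for Igf2 and 2 for Pik3r1. The 250 bases before each start were searched on both strands. Capitals mark CACGTG, the E-box letters, and TGTTTTG, letters of the forkhead-type insulin response element.
Irs1 (chr1:82291440-82291689, minus strand): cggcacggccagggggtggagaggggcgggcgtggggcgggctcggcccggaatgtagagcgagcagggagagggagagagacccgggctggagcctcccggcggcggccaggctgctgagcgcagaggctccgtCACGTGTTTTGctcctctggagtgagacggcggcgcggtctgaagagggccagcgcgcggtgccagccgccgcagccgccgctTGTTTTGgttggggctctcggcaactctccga
Irs2 (chr8:11008930-11009179, minus strand): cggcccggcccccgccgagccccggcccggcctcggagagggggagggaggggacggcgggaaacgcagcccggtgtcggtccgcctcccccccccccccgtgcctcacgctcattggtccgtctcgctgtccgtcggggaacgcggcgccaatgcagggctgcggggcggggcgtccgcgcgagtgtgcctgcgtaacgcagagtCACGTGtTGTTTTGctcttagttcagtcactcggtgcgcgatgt
Igf2r (chr17:12769707-12769956, minus strand): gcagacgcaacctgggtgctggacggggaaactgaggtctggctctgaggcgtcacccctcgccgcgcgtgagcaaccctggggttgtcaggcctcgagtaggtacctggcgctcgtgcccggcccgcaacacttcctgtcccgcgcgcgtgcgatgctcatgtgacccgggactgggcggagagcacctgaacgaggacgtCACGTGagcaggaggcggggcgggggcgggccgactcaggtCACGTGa

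In Irs1 the first TGTTTTG overlapped the E-box by its leading bases and another lay nearer the start, and in Irs2 a single base separated the pair. Both motifs together occurred in 97 of the 32851 promoters in the RefSeq table (0.295%), and CACGTG alone in 6.02%. At least 2 CACGTG, as in Igf2r, were found in 0.429% of all promoters, and TGTTTTG in 5.56%. The forkhead letters GTAAACA (3.17% of all promoters) and the STAT-type letters TTCNNNGAA (7.02%) matched in 0 of the 12 promoters of these genes. These matches describe letters in a short window and not binding.

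For none of the 10 genes did the difference between BKO and Cre islets pass the test against the spread of the libraries. With edgeR's quasi-likelihood test and Benjamini-Hochberg adjustment over 13583 genes, 0 of the 9 genes that passed the filter on low counts were called, as were 0% of all genes. At an unadjusted p under 0.05 there were also 0 of the 9, against 13.4% of all genes. DESeq2 and limma-voom called 0 of the 9 too, where DESeq2 called 1.64% of all genes and limma-voom none. Other fits that called any gene also called 0 of the 9: edgeR with the replicate number as a block called 2.68% of all genes, and edgeR without BKO-3, BKO-4, Cre-1 or Cre-5 called 0.0366%, 1.92%, 0.0439% and 0.807%. In all 10 genes the BKO and Cre libraries overlapped, whereas 0.508% of all genes did not overlap. Of the 9 tested genes 3 had a positive and 6 a negative log2 fold change, with a median of -0.065, against 0.0078 over all genes.

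**Figure D1:**
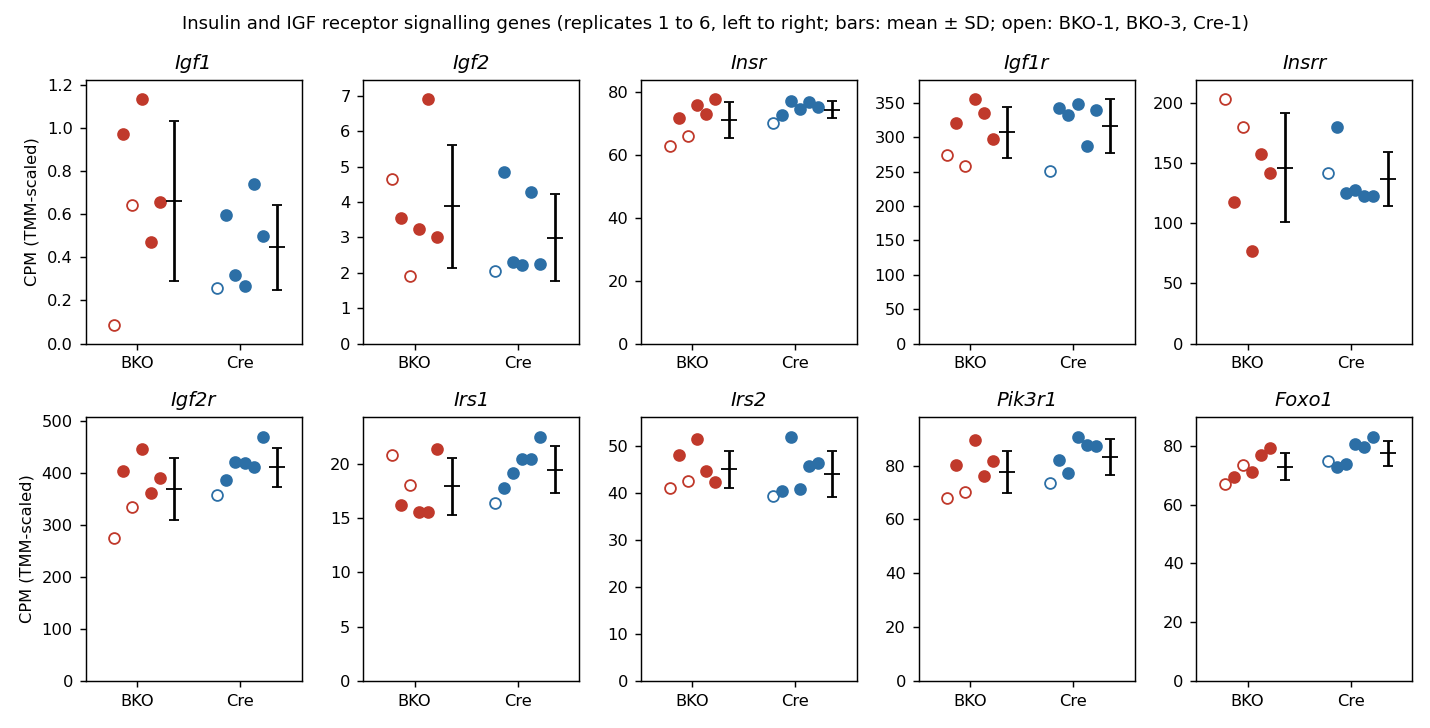
Level of each gene in CPM (TMM-scaled) on the vertical axis, by genotype, with the 6 BKO libraries left of the 6 Cre libraries and bars for the mean ± SD. Open circles are BKO-1, BKO-3 and Cre-1, which are the 3 lowest libraries for Insr, Igf1r, Igf2r and Pik3r1, and in every panel the 2 genotypes overlap.

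The ligands were the rarest of the 10 transcripts. Gene positions are in mm10, from GENCODE, and all 10 are protein-coding. Igf1 (chr10:87858265-87937042, plus strand), a growth factor made in large amounts by the liver and locally by other tissues, had 44 reads in all BKO and 32 in all Cre libraries and did not pass the filter. It ranged from 0.0862 to 1.13 CPM (median 0.649) in BKO and from 0.258 to 0.741 CPM (median 0.407) in Cre. BKO-4 was highest and BKO-1, with 1 read, lowest of the 12. The mean was 0.660 ± 0.370 CPM for BKO, against 0.446 ± 0.198 CPM for Cre (SD, n = 6 each; exact two-sided permutation p = 0.238 over 924 splits), and the ratio of summed reads was 1.48 with an exact 95% interval of 0.916 to 2.41 for counting error only. Without BKO-1, and so over fewer splits, the same permutation test gave an unadjusted p = 0.0476, with no other single library having that effect. This was the smallest p of the 15 alternatives for Igf1, and the largest was 0.461.

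Igf2 (chr7:142650766-142666816, minus strand), the fetal growth factor expressed from the paternal allele in mice, ranged from 1.92 to 6.90 CPM (median 3.38) in BKO and from 2.06 to 4.86 CPM (median 2.27) in Cre. BKO-5 was highest and BKO-3 lowest, and in Cre the libraries split into 4 between 2.06 and 2.30 CPM and Cre-2 and Cre-5 above 4. On the log2 scale the fold change was 0.37 ± 0.30 (SE; 95% interval of the fold 0.838 to 1.99, edgeR adjusted p = 0.656), and it was 0.12 without BKO-5. Stellate and fibroblast markers, summed, ranged from 80.6 to 128 CPM in BKO and from 55.4 to 125 CPM in Cre, with 12 of 13 higher on average in BKO. Cre-5 was the highest Cre library for these markers and for Igf1, but Cre-2 was the highest for Igf2. In BKO these markers were highest in BKO-2, Igf1 in BKO-4 and Igf2 in BKO-5. Macrophage markers, summed, ranged from 129 to 159 CPM in BKO and from 139 to 181 CPM in Cre, with 1 of 11 higher on average in BKO. They were highest in BKO-4, as was Igf1, and in Cre-4, where Igf1 was at 0.265 CPM. The part of either cell type in the ligand levels was not tested. In GENCODE, 62.8% of the exon bases of Igf2 are shared with Gm49394 on the same strand, a symbol not among those of the counts. The imprinted partner H19 had 1 read in BKO-2 and 0 in the other BKO libraries, and it had 10 reads in Cre-1, 7 in Cre-2 and 0 in the other Cre libraries.

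Insr (chr8:3122061-3279617, minus strand), the insulin receptor, varied least of the receptors, with a coefficient of variation of 8.14% in BKO and 3.56% in Cre. It ranged from 62.8 to 77.7 CPM (median 72.3) in BKO and from 70.1 to 77.1 CPM (median 74.9) in Cre. BKO-1 and BKO-3 lay below every Cre library and BKO-6 above them. Its log2 fold change was -0.065 ± 0.057 (SE), with a 95% interval of the fold of 0.880 to 1.04 (edgeR adjusted p = 0.689).

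Igf1r (chr7:67952827-68233668, plus strand), the receptor for IGF1, ranged from 258 to 355 CPM (median 309) in BKO and from 251 to 348 CPM (median 336) in Cre. BKO-4 was highest and Cre-1 lowest of the 12, and 3 of 6 BKO libraries lay below the Cre mean. The log2 fold change was -0.045 ± 0.090, the interval of the fold 0.850 to 1.11 and the adjusted p 0.891.

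Insrr (chr3:87796951-87816101, plus strand), the orphan member of the family that senses alkaline pH, varied more than any of the other 8 tested genes but Igf2. Its levels were 203, 117, 180.1, 76.7, 158 and 141 CPM in BKO-1 to BKO-6, and 141, 180.3, 126, 127, 123 and 122 CPM in Cre-1 to Cre-6. The highest and the lowest of the 12 libraries, BKO-1 and BKO-4, were both BKO, a 2.65-fold range, against 1.47-fold in Cre. The coefficient of variation was 30.9% in BKO and 16.5% in Cre, a difference that was not tested. The log2 fold change of the means was 0.097 ± 0.21 (SE; interval of the fold 0.778 to 1.47, adjusted p = 0.902), and its sign turned without BKO-1 (-0.028).

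Igf2r (chr17:12682406-12769664, minus strand), the cation-independent mannose 6-phosphate receptor, which carries lysosomal enzymes and clears IGF2, ranged from 275 to 447 CPM (median 376) in BKO and from 357 to 470 CPM (median 415) in Cre. BKO-1 and BKO-3 were lowest and Cre-6 highest of the 12, and 5 of 6 BKO libraries lay below the Cre mean. Its log2 fold change was -0.16 ± 0.097 (SE; interval of the fold 0.778 to 1.04, adjusted p = 0.536), the most negative of the 9. Without BKO-4 it was -0.23 (adjusted p = 0.192) and without BKO-1 -0.090. Airn, the antisense transcript that silences paternal Igf2r in mice, averaged 9.81 ± 1.98 CPM across BKO islets, against 8.47 ± 0.928 CPM across Cre islets (SD, n = 6 each; edgeR adjusted p = 0.529). No source used here says whether counting used strand.

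**Figure D2:**
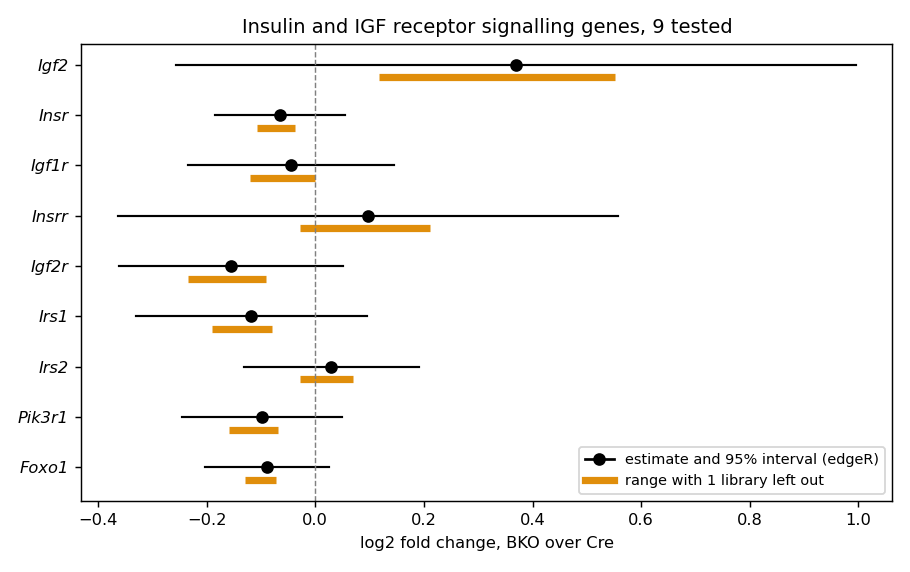
Log2 fold change, BKO over Cre, of the 9 tested genes (points) with 95% intervals from edgeR (black lines) and the range of the estimate when 1 library is left out (orange bars). Every interval includes 0, from 0.880 to 1.04 in fold for Insr to 0.838 to 1.99 for Igf2.

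The docking proteins did not follow each other. Irs1 (chr1:82233101-82291416, minus strand), an adaptor that binds the phosphorylated receptors, ranged from 15.6 to 21.4 CPM (median 17.1) in BKO and from 16.4 to 22.5 CPM (median 19.8) in Cre. BKO-2, BKO-4 and BKO-5 lay below every Cre library, while BKO-1 and BKO-6 were among the 3 highest of the 12. On the log2 scale the fold change was -0.12 ± 0.10 (SE; interval of the fold 0.795 to 1.07, edgeR adjusted p = 0.680). In GENCODE, 30.9% of the exon bases of Irs1 are shared with Gm9747 on the opposite strand, a symbol not among those of the counts.

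Irs2 (chr8:10984681-11008458, minus strand), the docking protein tied to β-cell mass in mice, ranged from 41.1 to 51.5 CPM (median 43.6) in BKO and from 39.4 to 52.0 CPM (median 43.3) in Cre. Cre-3 and BKO-4 were highest and Cre-1 and Cre-2 lowest. The log2 fold change was 0.030 ± 0.076, the interval of the fold 0.913 to 1.14 and the adjusted p 0.925. Per kilobase of exon, the Irs2 to Irs1 ratio was 3.72 ± 0.799 in BKO and 3.30 ± 0.377 in Cre (SD, n = 6 each), with ranges of 2.85 to 4.77 in BKO and 2.88 to 3.93 in Cre that overlapped.

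Of the effectors, Pik3r1 (chr13:101680563-101768217, minus strand), which encodes the p85α, p55α and p50α regulatory subunits of PI3-kinase, ranged from 68.0 to 89.6 CPM (median 78.2) in BKO and from 73.4 to 90.8 CPM (median 84.5) in Cre. BKO-1 and BKO-3 were the lowest and Cre-4 the highest of the 12. On the log2 scale the fold change was -0.098 ± 0.070 (SE; interval of the fold 0.844 to 1.04, edgeR adjusted p = 0.606). The counts are per gene and do not separate its start sites.

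Foxo1 (chr3:52268336-52353221, plus strand), the transcription factor that AKT phosphorylates, ranged from 67.1 to 79.2 CPM (median 72.3) in BKO and from 72.8 to 83.1 CPM (median 77.2) in Cre. BKO-1, BKO-2 and BKO-4 lay below every Cre library, and the 3 highest of the 12 libraries were all Cre. Its log2 fold change was -0.089 ± 0.054 (SE; interval of the fold 0.869 to 1.02). Its adjusted p of 0.521 by edgeR was the smallest of the 9, and 5 of 6 BKO libraries were lower than the Cre mean.

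Per kilobase of exon, Igf2r was the most abundant of the 10 transcripts, with 39.6 ± 6.41 CPM per kb in BKO and 44.1 ± 4.07 in Cre (SD, n = 6 each). Insrr followed at 25.6 ± 7.90 in BKO and 23.9 ± 3.94 in Cre, and Igf1r at 18.3 ± 2.20 in BKO and 18.8 ± 2.32 in Cre. Over the 12 libraries the range of Insrr overlapped that of Igf2r above it and that of Igf1r below it, while Igf2r and Igf1r did not overlap. Foxo1 (8.40 ± 0.528 in BKO, 8.94 ± 0.486 in Cre), Pik3r1 (7.70 ± 0.792 in BKO, 8.24 ± 0.665 in Cre) and Irs2 (7.13 ± 0.631 in BKO, 6.98 ± 0.769 in Cre) came next, each overlapping its neighbour. Insr, at 5.18 ± 0.421 CPM per kb in BKO and 5.41 ± 0.193 in Cre, lay below these in every library, and Irs1, Igf2 and Igf1 followed without overlap. The Igf1r to Insr ratio per kilobase was 3.53 ± 0.290 in BKO and 3.48 ± 0.395 in Cre (SD, n = 6 each), and that of Insrr to Insr ranged from 2.43 to 7.79 in BKO and from 3.84 to 5.96 in Cre. Lengths are the merged exons of all GENCODE transcripts of a gene, so isoforms that islets do not use lower these values.

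**Figure D3:**
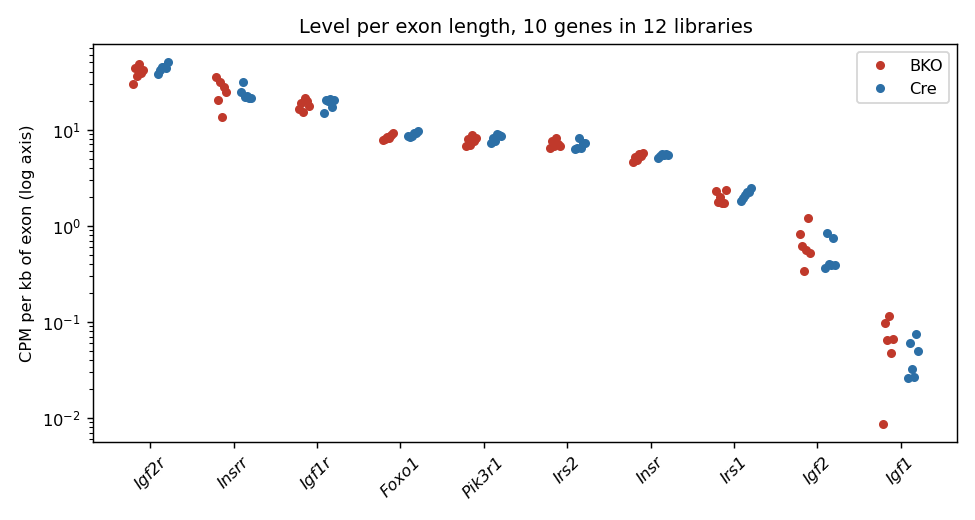
CPM per kilobase of merged exon (vertical log axis) for the 10 genes, ordered by their median over the 12 libraries, with BKO points left of Cre points. Insrr overlaps Igf2r and Igf1r at the top, and Igf1 lies lowest, with medians of 42.7 CPM per kb for Igf2r and 0.0552 for Igf1.

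The order of the libraries was shared by several of the genes across both genotypes. Insr, Igf1r, Igf2r and Pik3r1 all had their 3 lowest values in the same libraries, BKO-1, BKO-3 and Cre-1, as 4.37% of all tested genes did. The same 3 libraries had the highest share of reads aligned to several places, 5.36% to 5.61%, against 4.79% to 5.05% in the other 9. Across 2410 tested genes with at least 8000 exon bases and 1679 with fewer than 2000, the median log2 deviation of long genes minus that of short genes was -0.083 in BKO-1, -0.087 in BKO-3 and -0.10 in Cre-1, lower than in the other libraries (-0.056 to 0.071). Of the 10 genes 7 have at least 8000 exon bases: Insr, Igf1r, Igf2r, Irs1, Pik3r1, Foxo1 and Igf1, of which Igf1 was not tested and so is not in the long set. The part of alignment or RNA quality in these levels was not tested. Without these 3 libraries, a step chosen after the data were examined, 0 of the 9 genes were called by edgeR (0.578% of all genes were), and the log2 fold change was -0.021 ± 0.049 for Insr, -0.018 ± 0.063 for Igf1r, -0.079 ± 0.065 for Igf2r, -0.060 ± 0.061 for Pik3r1 and -0.15 ± 0.22 for Insrr (SE; 4 BKO and 5 Cre libraries). In the same fit Foxo1 was at -0.081 ± 0.058, Irs2 at 0.043 ± 0.081 and Igf2 at 0.38 ± 0.32. Irs1 was farther from 0 than with all libraries, at -0.23 ± 0.11 against -0.12 ± 0.10 (unadjusted p = 0.0490 and adjusted p = 0.297 by edgeR without the 3 libraries), with 17.2 ± 2.81 CPM in the 4 BKO and 20.1 ± 1.76 CPM in the 5 Cre libraries (SD).

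**Figure D4:**
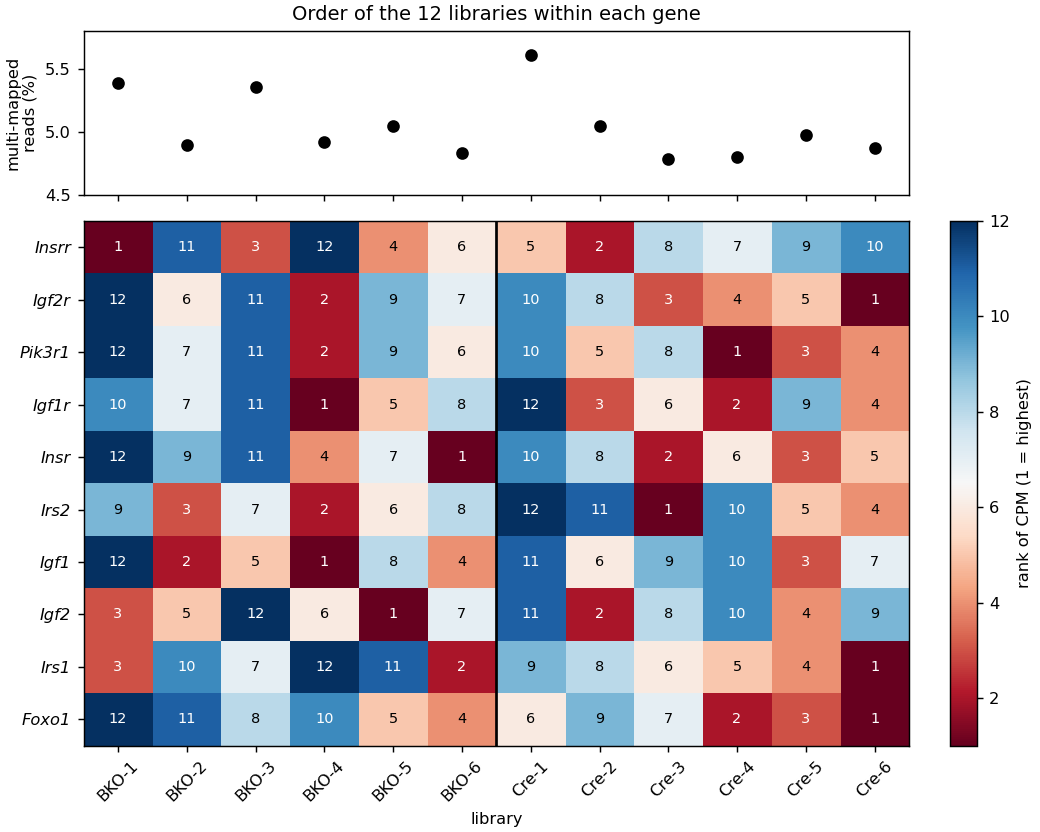
Upper panel, share of reads aligned to several places (percent, axis from 4.5) in each library, and lower panel, rank of each library within each gene (1, dark red, is the highest CPM), with BKO left of the line and Cre right of it. Insr, Igf1r, Igf2r and Pik3r1 have ranks 10 to 12 in BKO-1, BKO-3 and Cre-1, and Insrr runs opposite to Igf2r.

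Insrr ranked the libraries the other way from Igf2r. For each of the 12 libraries, Insrr lay among the 6 highest where Igf2r lay among the 6 lowest, and the reverse. The mean absolute difference in library rank, 0 for an identical order, was 6.00 for this pair, the largest of the 45 pairs, and 1.5 for Igf2r and Pik3r1, the smallest. A gene's median difference from all other genes compared was 4 to 4.17. Against Insrr the difference was 5.83 for Irs2, 5.5 for Insr, 5.33 for Pik3r1, 5.17 for Igf1 and 4.67 for Igf1r. It was 4.17 for Foxo1, 3.83 for Irs1 and 3.5 for Igf2. By this measure Stard10 (0.667) was among the genes most like Insrr, of 11902 compared. Those most like Igf2r were Ap2b1 and Dpagt1 (0.5 each), those most like Insr were Mtr (0.667) and Cpped1 (1.00), and those most like Pik3r1 were Atf6 (0.667) and Abhd12 (0.833). For Igf1r they were Pi4k2a (0.833) and Bag2 (1.00), for Irs1 Abcd3 (1.00) and Rpap1 (1.17), for Irs2 Gon4l (1.17) and Atp8b2 (1.33), for Foxo1 Dhcr7 and Rai2 (1.17 each), for Igf2 Ddx27 and Exosc5 (1.00 each) and for Igf1 Slc4a4 (1.17) and Arrb1 (1.33). They were picked as the nearest of many genes, so a small difference is a description of these libraries.

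Of 101 other listed genes, 90 were tested and 0 were called in either direction by edgeR. The list holds genes of the pathway and 5 imprinted neighbours of Igf2 and Igf2r, of which 1, Airn, was tested. At an unadjusted p under 0.05, 6 were higher in BKO, against 8.7% of all genes, and 3 were lower, against 4.66%. The median log2 fold change of the 90 was 0.021.

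The IGF binding proteins and their proteases held 3 of these 9 genes. Igfals, the acid-labile subunit that stabilises IGF complexes in blood, was at 83.6, 93.4, 91.8, 138, 89.0 and 108 CPM in BKO-1 to BKO-6, and at 97.5, 127, 149, 149, 127 and 148 CPM in Cre-1 to Cre-6. BKO-4 alone lay above the Cre mean. The log2 fold change was -0.40 ± 0.13 (SE; edgeR adjusted p = 0.224). Without BKO-4 it was -0.53 with an adjusted p of 0.0280 by edgeR, in a fit that called 1.92% of all genes. Leaving out any other single library did not lead to a call of Igfals. Igfbp7, a binding protein abundant in vessel walls, averaged 148 ± 17.1 CPM across BKO islets, against 123 ± 13.3 CPM across Cre islets (SD, n = 6 each; log2 fold change 0.26 ± 0.082 SE, edgeR adjusted p = 0.195, and 0.0452 without BKO-4). All 14 endothelial markers also had a higher mean in BKO, and their part in this value was not tested. Pappa2, a protease that cleaves IGF binding proteins, had a log2 fold change of 0.40 ± 0.18 and Htra1, a secreted serine protease, of 0.84 ± 0.42 (edgeR adjusted p = 0.373 and 0.412). Without Cre-5 the value for Htra1 was 1.52, with an adjusted p of 0.0283. Of the 12 listed binding protein and protease genes 8 were tested, 6 with a positive and 2 with a negative value, and Igfbp1 had 0 reads in every library.

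Among 10 tested adaptors the median log2 fold change was 0.057. Gab1, a docking protein that links receptor tyrosine kinases to PI3-kinase, had the smallest p of the pathway genes. It was at 5.58 to 9.57 CPM in BKO and 4.24 to 6.46 CPM in Cre, with means of 7.78 ± 1.53 CPM for BKO, against 5.34 ± 0.799 CPM for Cre (SD, n = 6 each) and all 6 BKO libraries above the Cre mean. Its log2 fold change was 0.54 ± 0.15 (SE; edgeR adjusted p = 0.156). Without BKO-4 the adjusted p was 0.0395 by edgeR, in the fit that called 1.92% of all genes. Sh2b2 (0.33 ± 0.24), Dok1 (0.31 ± 0.18) and Crk (0.082 ± 0.053), other adaptors, were the next by p.

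The kinases downstream showed small values. The median log2 fold change was -0.022 over 11 PI3-kinase, AKT and GSK3 genes, -0.037 over 13 genes of the mTOR complexes and 0.0086 over 11 genes of the RAS branch, with 0 genes of these lists at an unadjusted p under 0.05. Akt1 was at -0.12 ± 0.072, the regulatory subunit gene Pik3r3 at -0.13 ± 0.076, and the catalytic subunit genes Pik3cb and Pik3cd at 0.21 ± 0.12 and 0.23 ± 0.15. Mtor was at -0.15 ± 0.073, its inhibitor Deptor at -0.14 ± 0.075, Akt1s1, which encodes an mTORC1 inhibitor, at -0.069 ± 0.053, and the translation repressor Eif4ebp1 at 0.15 ± 0.076. Of the RAS branch, Mapk3 was at -0.081 ± 0.052, Map2k1 at 0.093 ± 0.067 and Hras at 0.12 ± 0.079.

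Among 16 inhibitors and phosphatases the median was 0.028, with 10 positive and 6 negative values. At an unadjusted edgeR p under 0.05, 2 were higher and 1 was lower in BKO. Socs3, a cytokine-induced inhibitor that also binds the insulin receptor, averaged 93.9 ± 25.2 CPM across BKO islets, against 65.4 ± 13.8 CPM across Cre islets (SD, n = 6 each; log2 fold change 0.52 ± 0.19 SE, edgeR adjusted p = 0.279). The tyrosine phosphatase Ptpn2 was at 0.23 ± 0.075 and its relative Ptpn1 at 0.17 ± 0.082 (adjusted p = 0.206 for Ptpn2 and 0.395 for Ptpn1 by edgeR).

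The FOXO paralogs and known FOXO targets had a median of 0.031 over 18 tested genes, 11 positive and 7 negative. Bcl2l11, which encodes the death protein BIM, was at 0.27 ± 0.091 and Cited2, a transcriptional co-regulator, at -0.25 ± 0.10 (edgeR adjusted p = 0.218 and 0.296), and Sod2 (0.12 ± 0.060) and Fbxo32 (-0.18 ± 0.090) followed by p. Pck1 and G6pc, FOXO targets of the liver, had 0 reads in every library. The ligand genes Ins1 and Ins2 were at -0.20 ± 0.11 and -0.071 ± 0.12 (edgeR adjusted p = 0.440 and 0.865), and since the genes are close paralogs, how reads were divided between them is uncertain.

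**Figure D5:**
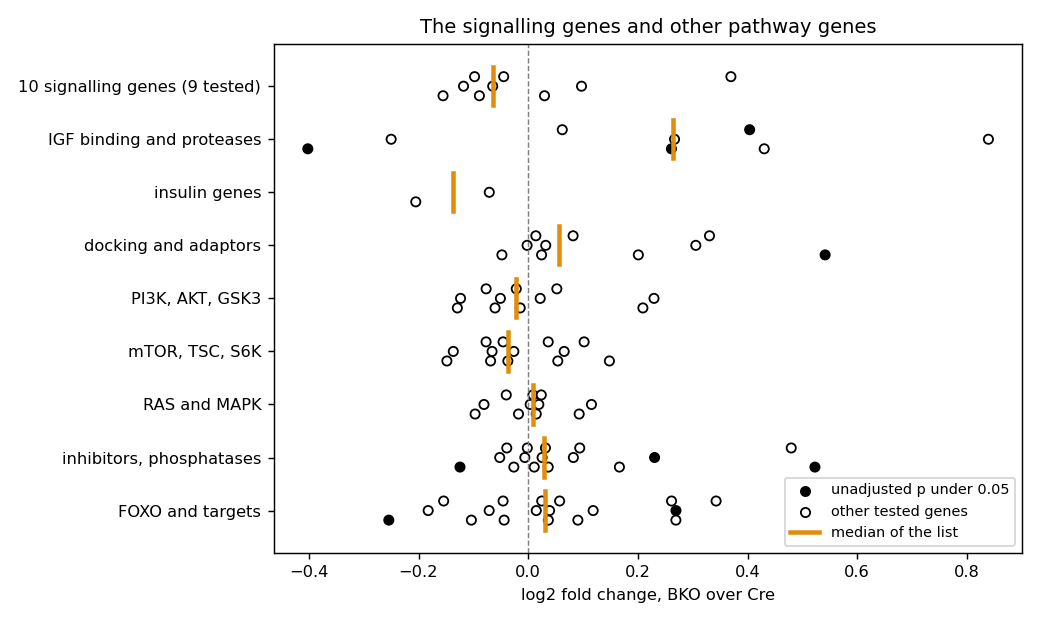
Log2 fold change, BKO over Cre, of each tested gene (points, filled at an unadjusted p under 0.05) by group, with the median of each group as an orange bar. The 9 tested signalling genes hold no filled point and have a median of -0.065, and the widest spread is that of the IGF binding proteins and proteases, from -0.40 for Igfals to 0.84 for Htra1.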

How the data were processed

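Total RNA of islets was read paired-end, per the labels' protocols. HISAT2 2.0.5 and HTSeq on mm10 are named in the submitters' processing notes, and the sources used here give no annotation, HTSeq version or strand setting. The authors deposited raw read counts per gene symbol, 24421 genes and 5 summary lines a sample. The summary lines entered neither library sizes nor tests, and their mean shares were 9.90%, 1.21%, 18.6%, 2.43% and 5.08% in BKO and 9.41%, 1.18%, 20.2%, 2.47% and 5.02% in Cre (no feature, ambiguous, low alignment quality, not aligned, not unique). A scaled table was not used here.

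Tests used edgeR 4.0.16 in R 4.3.3 (filterByExpr by genotype, TMM, robust glmQLFit, glmQLFTest), with Benjamini-Hochberg adjustment across the 13583 genes kept and a threshold of 0.05. Fold changes are BKO over Cre. CPM uses TMM-scaled library sizes, and 3 reads were 0.238 to 0.284 CPM. The biological coefficient of variation was 11.7%. The procedure was tested on simulated data. Alternatives were other scalings (RLE, upper quartile, TMM leaving acinar markers out), other count filters, DESeq2 1.42.0 and limma-voom with library quality weights (limma 3.58.1). Further ones were a fit that is not robust, a replicate block, other thresholds and each library left out. No 2 libraries of a group agreed within sampling noise (chi-square of 5.08 to 30.0 per gene over 30 pairs). Lengths and overlaps come from GENCODE for GRCm38.

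The 10 genes and all lists were chosen with earlier results of these data known. Named pathway genes are up to 4 per list by smallest p, plus, for each of the 10 genes, the 2 genes (mean log2 CPM of at least 1) most like it in library ranking. H19, Igfbp1, Pck1 and G6pc were named after their values were seen. Some genes that this rule names are not reported here.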

Additional observations from a re-analysis of the deposited data

Results flagged for a closer look

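In 6 of 102 groups of 6 libraries that were checked, 1 library lay far from the other 5, and chance does this in about 1 of 20 groups. Insrr was at 180.3 CPM in Cre-2, where the next Cre library was at 141 CPM. Of the pathway genes, Ins1 was at 33547 CPM in BKO-4 (next 25185 CPM), Htra1 at 4.77 CPM in Cre-5 (next 1.5 CPM), and Crk at 105.6 CPM in Cre-6, below the next at 114 CPM. Summed stellate markers were at 125 CPM in Cre-5 (next 74.7 CPM), and summed acinar markers at 6824 CPM in Cre-2 (next 2451 CPM).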

How the results depend on the processing

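Under every alternative 0 of the tested signalling genes were called. The smallest unadjusted edgeR p for Igf2r was 0.0202, with the replicate block (adjusted p = 0.199). For Pik3r1 it was 0.0324 without BKO-4 (adjusted p = 0.231), and for Foxo1 0.0342 without BKO-6 (adjusted p = 0.335). For Irs1 it was 0.0490, without BKO-1, BKO-3 and Cre-1. Insr, Insrr, Igf1r, Igf2 and Irs2 stayed above 0.05 under every alternative. Over all genes the count of calls, 0 in the fit reported, was 223 with DESeq2, 364 with the replicate number as a block, 79 without BKO-1, BKO-3 and Cre-1, and 0 to 262 with 1 library left out (262 without BKO-4, 110 without Cre-5, 6 without Cre-1, 5 without BKO-3); the cause was not tested. The labels do not pair the replicate numbers: same-numbered libraries deviated together by more than a correlation of 0.1 in 4 of 6 pairs, and 4 of 6 BKO libraries correlated best with their own number. With the block, Igfbp7, Igfals and Gab1 were called (adjusted p = 0.00890, 0.00836 and 0.0336 by edgeR).

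Signs turned for Insrr with limma-voom (-0.019), without BKO-1 (-0.028) and without BKO-1, BKO-3 and Cre-1 (-0.15), for Igf1r without BKO-3 (2.3e-05), and for Irs2 without BKO-2 (-0.0047), BKO-4 (-0.029), Cre-1 (-0.018) or Cre-2 (-0.0022). With 1 library left out the log2 fold change ranged from -0.028 to 0.21 for Insrr, from -0.12 to 2.3e-05 for Igf1r and from -0.029 to 0.069 for Irs2. The other 6 tested signalling genes kept their sign in all 22 alternatives. Igf1, at 76 reads in 12 libraries, is limited by depth, and Insrr by the spread between BKO libraries.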
